A study of Mus musculus with 2 samples.

Results

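The 9 transcription factors Grhl1, Grhl3, Ovol1, Klf4, Elf3, Ehf, Trp63, Gata3 and Cebpb, which act in the differentiation of stratified squamous epithelium, were followed in cultured dental epithelial stem cells of control and Med1 knockout mice. They are 9 of the 16593 genes that the array's annotation names, were found by symbol, and are read by 14 of its 25697 probes. Dental epithelial stem cells lie in the cervical loop of the mouse incisor and normally supply the enamel-forming epithelium, and Med1 encodes part of Mediator, which passes the signal of DNA-bound factors on to RNA polymerase II.

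Expression was measured on 2 Illumina bead arrays, 1 per genotype, in mice of the C57/BL6 strain. Both genotypes carried Med1 fl/fl alleles, and in the knockout these were combined with Krt14 driven Cre, so deletion was directed to Krt14-expressing epithelium. How far the gene was deleted in these or other cells is not given in the labels. The controls were littermates with the floxed alleles, and no Cre is given for them in the labels. Each array held RNA of cells from 3 mice, all 3 months old, grown for 7 days at low density in medium with EGF and FGF without passage; the RNA is read here as pooled. With 1 array per genotype there is no replicate error, no test of genotype and no p-value between genotypes, and the number of arrays limits the precision.

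In the epidermis these factors act in sequence. Trp63 encodes p63, which establishes and maintains the basal layer. As cells leave that layer, Ovol1, a zinc finger repressor, curbs proliferation, and Cebpb encodes a bZIP factor active in early suprabasal differentiation. Grhl1 and Grhl3 (Grainyhead family), Klf4 (a zinc finger factor of the barrier programme), Elf3 and Ehf (epithelial ETS factors) and Gata3 (a zinc finger factor also required in the hair follicle) act in barrier formation and the late layers.

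Promoter sequences are shown for the factors that differed by at least 2-fold and had an entry in the RefSeq promoter table (Grhl1, Klf4 and Elf3), and for Grhl3 as the family relative of Grhl1. They are GRCm38.p6, 5′ to 3′ on the strand of the gene, and each is the window of 250 bases before an annotated start, ended for Grhl1 at the first annotated base of the gene. Capitals mark CACCC, the core bound by Krüppel-like factors, and GGAA, the core bound by ETS factors, each on either strand (so also GGGTG and TTCC).
Grhl1, chr12:24572037-24572231, plus strand: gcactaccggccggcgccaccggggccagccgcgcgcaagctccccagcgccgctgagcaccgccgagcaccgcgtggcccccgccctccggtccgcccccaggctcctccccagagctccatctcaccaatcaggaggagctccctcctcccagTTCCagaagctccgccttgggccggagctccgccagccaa
Grhl3, chr4:135573633-135573882, minus strand: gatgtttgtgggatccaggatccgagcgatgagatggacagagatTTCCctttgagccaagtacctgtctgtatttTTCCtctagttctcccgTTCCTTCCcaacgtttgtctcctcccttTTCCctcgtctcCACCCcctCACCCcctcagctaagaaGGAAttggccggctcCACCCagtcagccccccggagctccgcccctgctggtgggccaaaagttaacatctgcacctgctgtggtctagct
Klf4, chr4:55532476-55532725, minus strand: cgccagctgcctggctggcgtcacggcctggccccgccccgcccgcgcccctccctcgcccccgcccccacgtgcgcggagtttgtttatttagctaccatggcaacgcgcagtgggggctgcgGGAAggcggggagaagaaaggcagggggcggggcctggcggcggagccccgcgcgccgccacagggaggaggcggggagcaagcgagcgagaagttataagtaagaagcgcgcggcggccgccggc
Elf3, chr1:135258473-135258722, minus strand: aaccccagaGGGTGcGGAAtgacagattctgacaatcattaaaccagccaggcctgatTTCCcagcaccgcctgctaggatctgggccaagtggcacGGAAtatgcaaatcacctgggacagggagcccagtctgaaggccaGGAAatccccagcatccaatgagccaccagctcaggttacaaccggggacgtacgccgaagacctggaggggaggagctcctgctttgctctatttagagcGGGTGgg
In the 250-base windows, 6 of the 9 genes had an entry, with 7 promoters in all; Ovol1, Ehf and Trp63 had none. CACCC was found in 5 of these 7 promoters, against 52.0% of all 32851 promoters of the table. It occurred 3 times in the Grhl3 promoter, 2 times in that of Elf3 and 2 times in the alternative Grhl1 promoter, which is not printed, and did not occur in the Klf4 or first Grhl1 window. GGAA was in all 7 member promoters and in 93.4% of all promoters. The Grainyhead site AACCGGTT, present in 0.116% of all promoters, was in 0 of the 7, as were its looser form AACNNGTT (3.64%), the Krüppel-like site GGGCGTG (7.55%) and GATA (53.6%). CATG, the core of the p63 site, was in 2 of the 7, the alternative Grhl1 promoter and Klf4, against 53.9% of all promoters. A match or its lack describes only the letters of these windows.

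Of the 9 factors, 4 were higher by 2-fold or more on the knockout array, 0 were at least 2-fold lower, 3 were detected and differed by less, and 2 were not detected on either array. The 4 were Grhl1, Ovol1, Elf3 and Klf4. Among all 8217 genes detected on at least 1 array (detection p-value under 0.01 against the negative control beads), 8.35% were at least 2-fold higher and 6.52% at least 2-fold lower, 14.9% in all. The 7 detected factors had a median difference of 1.06, against -0.06 over all detected genes. The factors were chosen with earlier results of these data known, so these contrasts with all genes are a description. All differences are knockout minus control on the scale of background-corrected, quantile-normalized log2 intensity, unless said otherwise. Each of the 7 was detected on both arrays by the probe that represents it, the one with the highest mean, so none entered through 1 array alone.

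**Figure D1:**
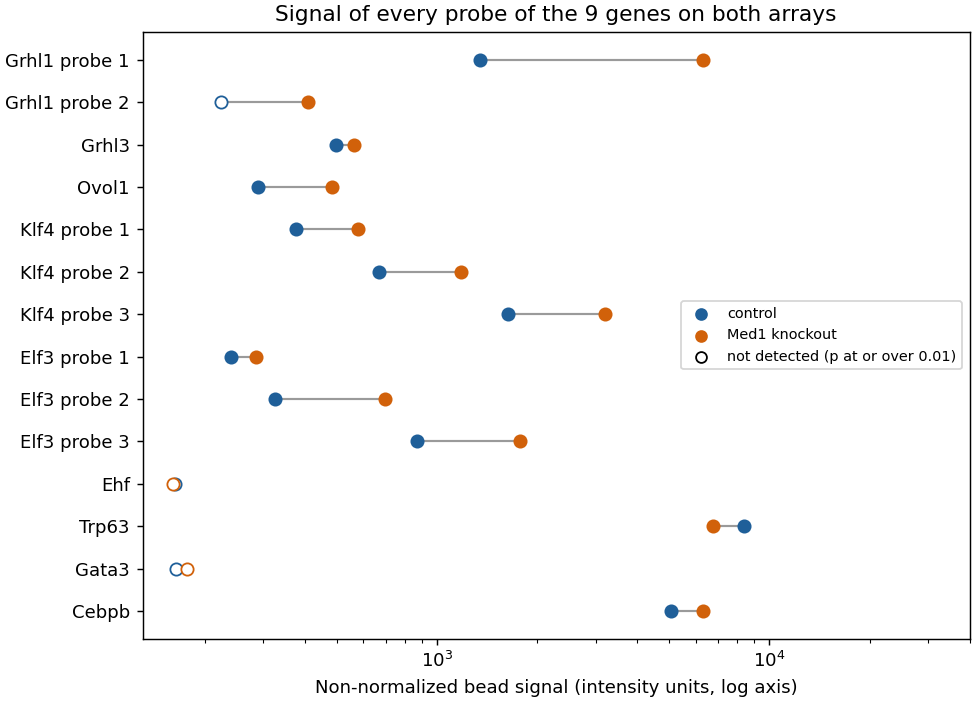
Non-normalized bead signal (intensity units, log axis) of each of the 14 probes on the control array (blue) and the Med1 knockout array (orange); open circles were not detected. Every probe of Grhl1, Ovol1, Klf4 and Elf3 read higher on the knockout array, Trp63 read lower, and Ehf and Gata3 lay at background on both.

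Grhl1 showed the largest difference of the 9. Its brighter probe had a non-normalized signal of 1346 in the control and 6329 in the knockout. After correction and normalization these were 10.18 and 12.58 on the log2 scale, a difference of 2.40 or 5.26-fold. A second, dim probe read 224 in the control, where it was not detected (detection p-value 0.0188), and 408 in the knockout, at least 3.28-fold higher after background correction. The raw signal ratio of that probe was 1.82. Both Grhl1 probes thus pointed the same way, although both read the same RNA. The gene, on chromosome 12, ranked 169 of 8217 detected genes from the highest difference. Of 1097 detected genes within 0.5 log2 units of its mean intensity, 14 (1.28%) differed more in either direction.

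Grhl3, its Grainyhead relative, on chromosome 4, is required in mice for the skin barrier and for neural tube closure. Its single probe read 497 in the control and 561 in the knockout, which gave 8.36 and 8.69 on the log2 scale. The difference of 0.33 (1.26-fold) was close to the between-probe standard deviation of 0.31, the spread of the difference among probes of 1 gene (1830 genes had more than 1 probe detected on both arrays). That spread is technical and holds no variation between mice. Of 1215 genes of similar intensity, 57.2% differed more than Grhl3.

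Elf3 and Klf4, each read by 3 probes, gave the most probe evidence. The brightest Elf3 probe read 872 in the control and 1780 in the knockout (9.44 and 10.68 on the log2 scale), a difference of 1.24 or 2.37-fold. Its other probes read 325 and 695 (3.39-fold higher) and, close to background, 240 and 286 (1.60-fold higher). All 3 Elf3 probes were detected on both arrays and higher in the knockout, but their differences ran from 0.67 to 1.76, and the dimmest did not reach 2-fold. Elf3 lies on chromosome 1, and 4.55% of 1274 genes of similar intensity differed more.

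Klf4 varied little between its probes after background correction. The brightest read 1640.03 in the control and 3202 in the knockout (10.51 and 11.58 on the log2 scale), a difference of 1.06 or 2.09-fold. The others read 669 and 1184 (2.13-fold) and 377 and 579 (2.03-fold). The 3 differences, 1.02, 1.06 and 1.09, thus lay just past 2-fold over a wide range of signal. Without the correction the same probes gave 0.67, 0.99 and 0.89, all under 2-fold and smaller where the signal was dimmer. In the deposited values they gave 0.65, 1.01 and 0.89. Klf4 lies on chromosome 4, and 6.59% of 1229 genes of similar intensity differed more.

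Ovol1, on chromosome 19, had a single, dim probe. It read 289 in the control and 484 in the knockout (7.01 and 8.39 on the log2 scale), a difference of 1.39 or 2.61-fold. It was detected on both arrays. Of 1117 genes of similar intensity, 10.7% were at least 2-fold higher and 8.50% at least 2-fold lower, and 12.1% differed more than Ovol1 in either direction. These genes include some detected on 1 array alone, where they had to be higher, unlike Ovol1. The part of that filter in the shares was not tested. For genes with a mean log2 intensity under 8 the between-probe standard deviation was 0.34, and for those at 10 or more it was 0.29.

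Trp63 and Cebpb were bright on both arrays and differed little. The Trp63 probe read 8366 in the control and 6783 in the knockout (13.05 and 12.68 on the log2 scale), a difference of -0.38 or 1.30-fold lower. It was the only one of the 7 detected factors that was lower in the knockout. One probe reads Trp63, and which p63 isoforms it covers was not given in the sources used here. Cebpb read 5060 in the control and 6295 in the knockout (12.27 and 12.57 on the log2 scale), a difference of 0.30 or 1.23-fold higher. Each differed by about the between-probe standard deviation, and 29.9% of genes of similar intensity differed more than Trp63 and 40.3% more than Cebpb.

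Ehf and Gata3, each read by 1 probe, were not detected on either array. Ehf read 163 and 161, with detection p-values of 0.605 and 0.811. Gata3 read 163 and 177, with detection p-values of 0.599 and 0.366. The lowest signals of any detected probe were 237 in the control and 241 in the knockout, so no fold is given for either gene. Whether their RNA was absent or below what these probes can show cannot be told from the arrays.

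**Figure D2:**
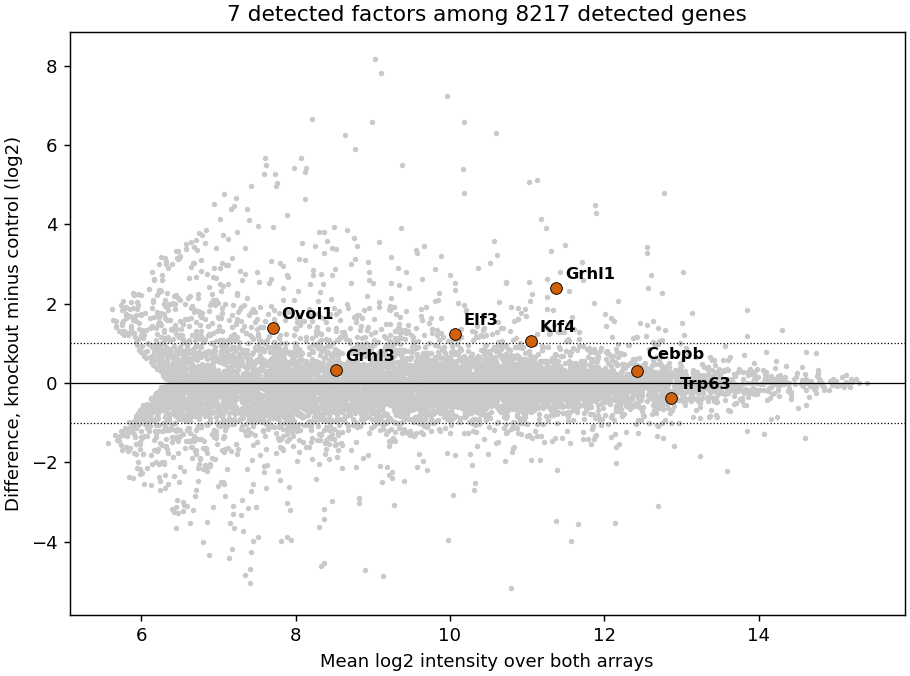
Difference (knockout minus control, log2) against mean log2 intensity for the 8217 genes detected on at least 1 array (grey), with the 7 detected factors in orange; dotted lines mark 2-fold. Grhl1 at 2.40 stands above most genes of its intensity, Ovol1, Elf3 and Klf4 lie just over the line, and Grhl3, Cebpb and Trp63 lie within it.

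The differences of dim probes depended on background correction. Without it, 8 probes past 2-fold became 3, the brighter probe of Grhl1 (2.25) and both brighter probes of Elf3 (1.08 and 1.15). Klf4 then stood at 0.99 and Ovol1 at 0.79, both under 2-fold, and 2 of the 9 factors passed, against 4.15% of all detected genes higher (and 2.51% lower). The raw signal ratios, with nothing done to the values, were 4.70 for Grhl1, 2.04 for Elf3, 1.95 for Klf4 and 1.67 for Ovol1, each by its brightest probe. In the authors' deposited normalized values, the differences were 2.27, 1.09, 1.01 and 0.77.

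**Figure D3:**
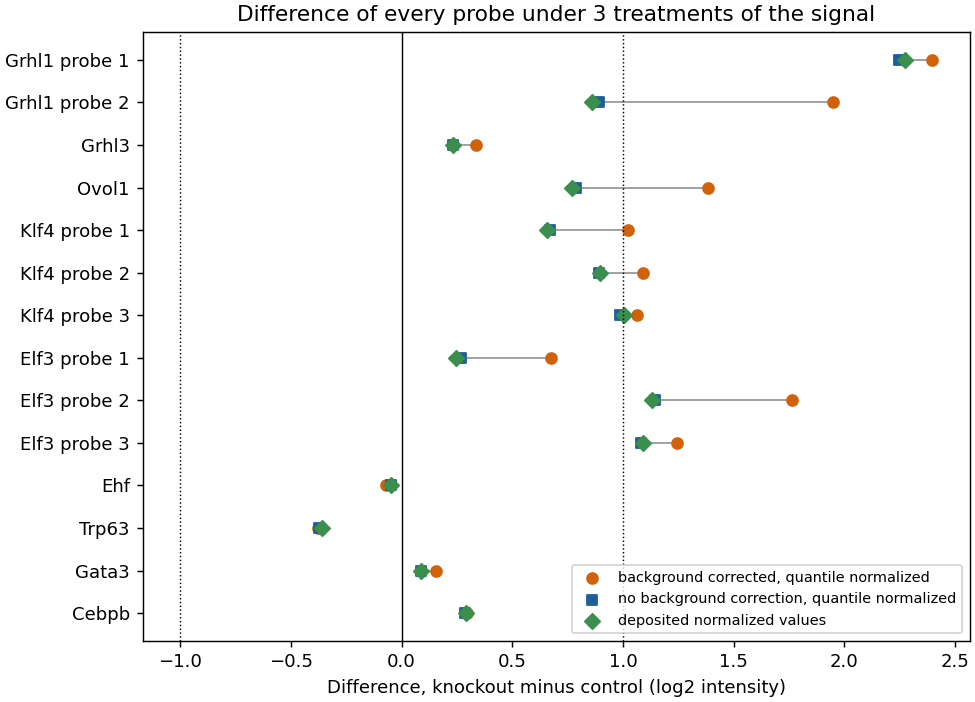
Difference of each probe (knockout minus control, log2 intensity) with background correction (circles), without it (squares) and in the deposited normalized values (diamonds); dotted lines mark 2-fold. Bright probes such as Grhl1 probe 1, Klf4 probe 3, Trp63 and Cebpb hardly move, while Ovol1 and the dim probe of Grhl1 drop from 1.39 and 1.95 to 0.79 and 0.89 without correction.

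The families of these factors were followed in the same way. Of 51 other measured genes of the Grainyhead, Ovo-like, Krüppel-like, ETS, p53, GATA and C/EBP families, 27 were detected. By their brightest probes 0 were at least 2-fold higher (8.35% of all detected genes) and 2 at least 2-fold lower (6.52%), with a median of -0.19. Of the 2, Etv1 was seen on the control array alone, and with lower bounds 1 was lower. Without background correction both were under 2-fold, Etv5 at -0.85 and Etv1 at -0.54. Over the 24 detected on both arrays the median was -0.094. The members were chosen with results of these arrays known, so this contrast between them and their relatives is a description.

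In the Grainyhead family Grhl2, which maintains epithelial junctions, read 2479 and 1771 and differed by -0.48, opposite in sign to Grhl1. The more distant Tfcp2 and Ubp1 differed by -0.04 and -0.49. Ovol2, which keeps epithelial cells from mesenchymal transition, differed by -0.37 by its brightest probe and by -1.33 and -1.54 by its other detected probes, while Ovol1 was higher. Of the Krüppel-like factors, Klf5, which is active in proliferating epithelium, was bright and at -0.05, Klf3 was at 0.19, Klf6 at 0.43 with a second probe at 1.12, Klf16 at 0.45, Klf13 at -0.19, Klf9 at -0.56 and Klf7 at -0.81. The other 8 measured members of that family were not detected.

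Among the ETS factors, Elf3 alone was at least 2-fold higher by its brightest probe. Elf5, a relative of Elf3 and Ehf, was at -0.57, but its other detected probes ran from -0.50 to 1.85. Elf1, Elf2, Ets1, Ets2, Elk3, Etv3, Etv4 and Gabpa lay between -0.26 and 0.58, and Etv6 at -0.89. Elk4 and Erf were seen on the control array alone and were at least 1.01-fold and 1.30-fold lower. Etv5, a target of FGF signalling, was 2.44-fold lower, and Etv1 was detected on the control array only (at least 1.60-fold lower, with a measured difference of -1.56). Other detected probes of Elf2 ran from -1.0 to -0.22, against 0.21 for its brightest, and that of Gabpa was at -0.39, against 0.54. Trp73, all 6 GATA genes, Cebpe and Cebpg were not detected. Cebpa, active in later keratinocyte differentiation, was at -0.36 and Ddit3 at 0.10.

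**Figure D4:**
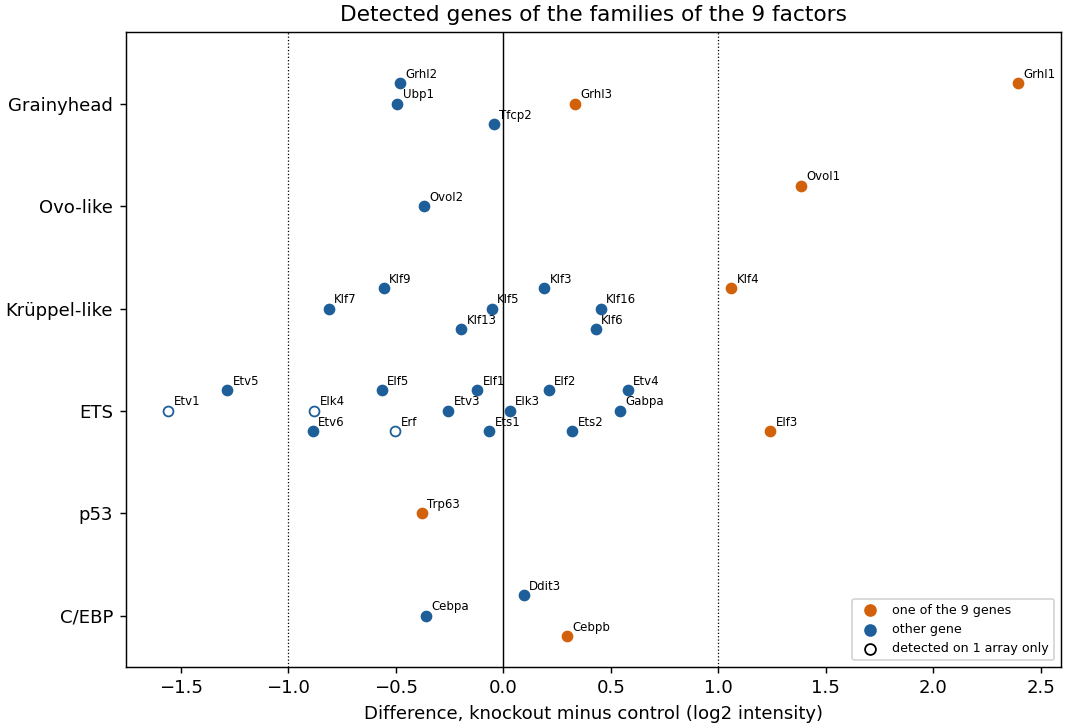
Difference (knockout minus control, log2 intensity) of the brightest probe of each detected gene in the families of the 9 factors; orange marks the factors themselves, and open circles genes detected on 1 array only, at their measured difference. Past the upper dotted line (2-fold) lie Grhl1, Ovol1, Klf4 and Elf3, and past the lower one Etv1 and Etv5.

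Other transcription factors of epidermis and hair split. Of 30 measured, 16 were detected on both arrays. Among these, 2 passed 2-fold upwards, against 5.53% of all genes so detected, and 2 downwards, with a median of -0.22. The share lower was computed only over genes detected on at least 1 array, at 6.52%. A further 3 passed the filter through the knockout array alone, where they had to be higher. With them 5 were higher (3 with lower bounds), against 8.35% of all detected genes, and the median was 0.29. The 2 higher on both were Satb1, a chromatin organizer under p63 in epidermis (3.53-fold), and Rxra, the common partner of nuclear receptors (2.13-fold). Seen on the knockout array alone were the homeobox genes Msx1 (at least 1.78-fold) and Msx2 (at least 2.68-fold) and the bZIP gene Maf (at least 1.35-fold). The lower ones were Hr, the hairless corepressor of the hair cycle (2.46-fold, with a second probe at -2.04), and Runx1 (2.09-fold). Without background correction Satb1 (1.27) and Hr (-1.25) still passed 2-fold. Rxra (0.73), Runx1 (-0.95), Msx1 (0.62), Msx2 (0.65) and Maf (0.55) then did not. Zfp750, which lies between p63 and Klf4 in human keratinocytes, read 3454 and 6768 and differed by 0.99, just under 2-fold, Dlx3 differed by 0.84, and Bnc1, a basal zinc finger factor, by -0.97. Prdm1, Hopx and Pou2f3, regulators of later differentiation, were not detected.

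Genes described as targets of the factors were compared by list, each chosen with earlier results known. The share to set beside each list was 5.53% at least 2-fold higher among all genes detected on both arrays. For lower genes the share was computed only over genes detected on at least 1 array, at 6.52%. Of 10 Grainyhead targets, 8 were detected on both arrays, of which 1 passed 2-fold upwards and 0 downwards (median 0.38), and 1 was seen in the knockout alone. They were Tgm1, the transglutaminase that crosslinks the cornified envelope and a target of Grhl3 (1462 and 4862, 3.65-fold), and Dsg1b, a desmosomal cadherin of the upper layers (at least 3.88-fold). Dsg1b differed by 1.13 without background correction. Dsg1a, the Grhl1 target described in mouse, was not detected. Rab25, Cldn4 and Vangl2 differed by 0.74, 0.66 and 0.57, and Arhgef19, a Grhl3 target, by -0.80.

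Of 13 measured p63 targets, 12 were detected, 11 of them on both arrays, and 2 were higher (Satb1 and the desmosomal gene Perp, 3.44-fold), 2 lower and 8 between, with a median of 0.43 (0.42 over those on both arrays). Perp was dim, at 252 in the control and 466 in the knockout, and without background correction it differed by 0.93, under 2-fold. The lower ones were the integrin subunit Itga6 (4.26-fold) and the basal keratin Krt5 (2.33-fold), while Itga3 differed by 0.78. Krt14, also a p63 target and the source of the Cre promoter, differed by -0.10. Among all detected genes 8.35% were at least 2-fold higher and 6.52% at least 2-fold lower.

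Of 6 genes described as repressed by Ovol1 or its relatives, 4 were detected on both arrays and Zeb1 in the knockout alone. By brightest probe, 1 of the 4 was at least 2-fold higher, against 5.53% of all genes detected on both arrays. In the other direction 0 were at least 2-fold lower (median 0.02). Myc, which Ovol1 represses in mouse epidermis, differed by 0.14, and Id2, which it represses in mouse germ cells, by -0.11. Ovol2, another of its targets in mouse, differed by -0.37 by its brightest probe and by -1.33 and -1.54 by its other detected probes. Vim was 2.32-fold and Zeb1 at least 1.33-fold higher, both also genes of mesenchymal cells.

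The genes linked to Klf4, Elf3, Ehf, C/EBP-beta and Gata3, many but not all of terminal differentiation, held the largest single differences among the target lists. Of 13 measured, 9 were detected on both arrays. Among these, 5 passed 2-fold upwards, against 5.53% of all genes so detected, and 1 downwards, with a median of 1.39. Krt4 and Ivl passed the filter through the knockout array alone, where they had to be higher. With them 7 of 11 were higher, against 8.35% of all detected genes, and the median was 3.20, against -0.06. The differences were led by Krt4, a keratin of mucosal epithelium (172 and 9255, at least 112-fold), Lor, the main cornified envelope protein (532 and 12360.3, 33.2-fold), Sprr1b (17.7-fold), Sprr1a (11.9-fold), Krt19 (9.19-fold) and Ivl, the envelope precursor involucrin (at least 3.93-fold, with a measured difference of 3.38). Without background correction Krt4 differed by 5.70 and Ivl by 1.46. Krt10 was 2.62-fold higher, and its partner Krt1 was not detected. Tgm3, an Elf3 target in human cells, was not detected. Agpat5, a Gata3 target in lipid synthesis, was 2.26-fold lower while Gata3 itself was undetected, and Tgfbr2, an Elf3 target, differed by -0.49. The Agpat5 difference was -0.64, under 2-fold, without background correction. Of the 11 detected genes, 6 were higher by more than Grhl1 (5 with lower bounds). Grhl1 itself ranked 169 of all 8217 detected genes from the highest.

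**Figure D5:**
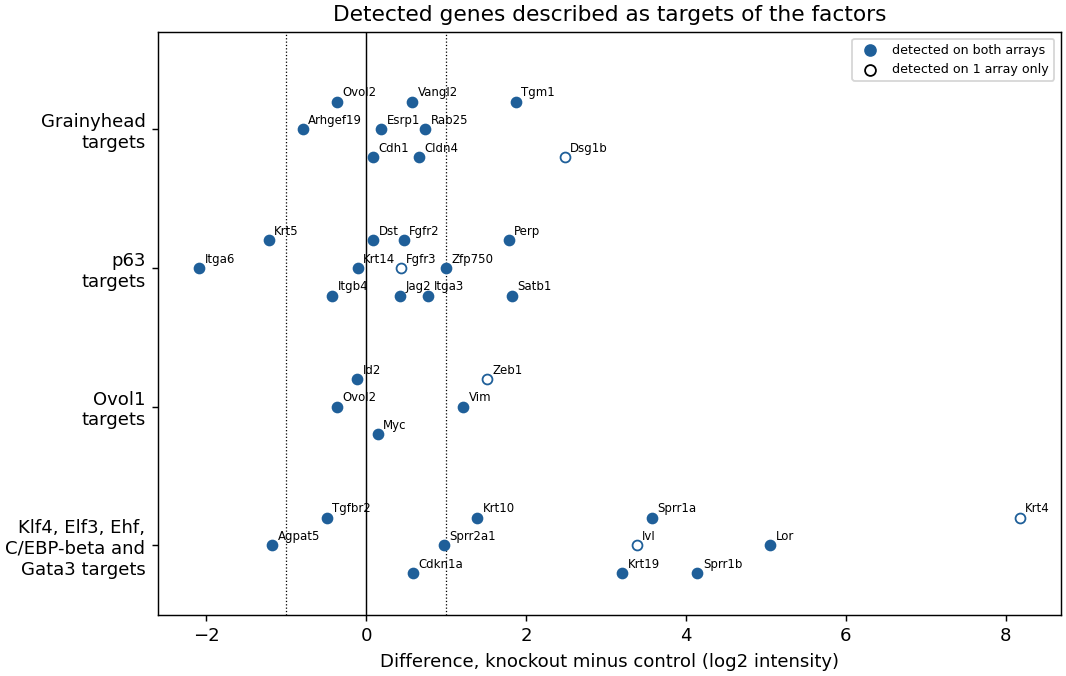
Difference (knockout minus control, log2 intensity) of the brightest probe of each detected gene described as a target of the factors; open circles were detected on 1 array only and stand at their measured difference. The genes linked to Klf4, Elf3, Ehf, C/EBP-beta and Gata3 reach from -1.17 (Agpat5) to 8.17 (Krt4), while p63 targets spread to both sides of 0.

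The arrays differed in other respects that accompany these differences. Med1 was 2.81-fold lower by its brightest probe (914 and 412), with a second probe at -0.28; whether the probes lie in the deleted part was not given in the sources used here. All 11 measured keratinocyte markers were detected on both arrays. At least 2-fold higher were 2 (Jup, 5.26-fold, and Krt15, 4.80-fold), against 5.53% of all genes so detected. In the other direction 1 was lower (Krt5), against 6.52% of genes detected on at least 1 array. Jup read only 259 in the control and differed by 1.41 without background correction. The median of the 11 markers was -0.10 and their summed signal 155546 in the control and 148745 in the knockout. Of 13 measured mesenchymal markers, 2 were detected on both arrays, Mmp2 (10.1-fold higher) and Vim. Another 6 passed the filter through the knockout array alone, where they had to be higher, led by Thy1 (at least 15.7-fold). With lower bounds 6 of the 8 were at least 2-fold higher, against 6.86% of all detected genes. The summed signal of the 13 was 3541 and 9717, and Col1a2, Pdgfra, Pdgfrb, Postn and Prrx1 were below detection in both samples. Of the endothelial, immune, and melanocyte and neural markers 1 each was detected, out of 6, 6 and 5 measured. Sex-linked transcripts differed too, with Xist seen in the knockout alone (at least 37.9-fold higher) and Y-linked Eif2s3y and Kdm5d lower by 3.03-fold and 2.77-fold. The part of the mesenchymal and sex-linked differences in the values of the 9 factors was not tested, and genotype and these differences cannot be told apart with 1 array each. In such bulk RNA, more cells of a type and more RNA per cell cannot be told apart either.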

How the data were processed

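The authors deposited, per the file headers, the mean bead signal intensity and a detection p-value of each of 25697 probes for 1 control and 1 Med1 knockout array. The signals are linear, without normalization between arrays, and their lowest values are 133 and 139. A deposited table of normalized intensity holds the same probes; how they were normalized was not stated in the sources used here. The submitters' processing notes name GenomeStudio 2011.1. Median signals were 205 and 207, and 43.1% and 42.6% of probes were detected.

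Background was corrected with the normexp model from the detection p-values (offset 16), then log2 values were quantile normalized (neqc, limma 3.58.1, R 4.3.3). The platform annotation gave 1 symbol for 23978 probes, several for 0 and left 1719 unnamed; 23962 were matched to the mouse gene table by gene identifier. A gene is represented by its probe with the highest mean. A probe counted as detected at p under 0.01, and a gene as higher or lower at 2-fold. For a gene detected on 1 array, "at least" divides the bright value by whichever is larger, the dim value or the lowest detected value there (log2 6.30 control, 6.37 knockout). It is a bound on the background-corrected scale only. Without the correction Thy1 differed by 2.89 (bound 3.98) and Xist by 4.21 (bound 5.24), but Maf by 0.55 (bound 0.44). Counts use measured differences. The procedure was tested on simulated data, with changes well past 2-fold made only in probes clear of background. Dim probes and differences near 2-fold were not covered by it.

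The members and gene lists were chosen with earlier results of these data known. Named genes are every member, Med1, all detected family relatives, and up to 6 genes of each other list with the largest absolute difference. Undetected relatives and markers, named only as not detected, fall outside this rule. Runx1, Zfp750 (in its first list), Dlx3, Bnc1, Jup, Krt15, Prdm1, Hopx, Pou2f3, Dsg1a, Krt14, Krt10, Krt1, Tgm3, Agpat5 and Tgfbr2 were added after their values were seen. The alternatives were other background corrections, scalings, detection filters, probe summaries and thresholds, the lower bounds, and the deposited values.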

Additional observations from a re-analysis of the deposited data

How the results depend on the processing

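The median difference of the detected factors kept its sign under all 11 alternatives run, and the count of 0 factors at least 2-fold lower held under all 13. The count of 4 factors at least 2-fold higher became 2 without background correction (Grhl1 and Elf3; 4.15% of all detected genes) and 1 at a threshold of 3-fold (Grhl1; 4.44%). It was 3 in the deposited values, where Ovol1 was under 2-fold (4.17%), and 4 under the other alternatives (4.45% without a detection filter to 14.6% at 1.5-fold). The median of 1.06 became 0.33 without a detection filter, which brings in Ehf and Gata3 at background. By single factor, Grhl1 ranged from 2.17 to 2.41, Elf3 from 1.08 to 1.24, Klf4 from 0.99 to 1.07 and Ovol1 from 0.77 to 1.39. Grhl3 ranged from 0.23 to 0.33, Cebpb from 0.29 to 0.36 and Trp63 from -0.38 to -0.27. Ovol1 moved by more than the between-probe standard deviation of 0.31 in 3 of 11 alternatives. Its signal lies close to background, and the size of its difference depended on the processing. No paired analysis was possible because each genotype has 1 array, and for the same reason no replicate could be left out.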
